A study of Mus musculus with 8 samples.

Results

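The pre-B-cell receptor and the proteins that first carry its signal were examined through 9 genes: Igll1, Vpreb1, Vpreb2, Vpreb3, Cd79a, Cd79b, Blnk, Syk and Btk. They were taken by name, and each was measured by 1 probe set with exactly 1 gene symbol, so all 9 were present among the 19937 genes measured in this way. No probe set with several symbols carried any of the 9 names. The samples were 8 preparations of mouse B-lymphoid cells, 4 labelled c-jun knock out and 4 labelled wild type, all with the strain label SW129/C57BL/6J, each run on 1 Affymetrix MoGene 1.0 ST array. The series concerns lymphoid leukemia and BCR-ABL, the fusion kinase that drives it, and the AP-1 transcription factor c-JUN; the sample labels do not say whether these cells carried BCR-ABL, and they give no age, treatment, culture time, clone or method of deletion. Nothing in the labels says that samples of a genotype came from separate animals or cultures, so p-values measure sample-to-sample spread that may be technical only. Titles follow 2 schemes: RO titles for replicates 1 and 2 of either genotype, D titles for knockout replicates 3 and 4, and F titles for wild-type replicates 3 and 4. Whether the schemes mark batches is not given in the labels, and in the D/F samples the title letter and the genotype cannot be told apart.

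The pre-B-cell receptor is the first antigen receptor of a developing B cell. It joins an immunoglobulin heavy chain to a surrogate light chain, made of lambda5 (the product of Igll1) and a VpreB protein, and signals through the CD79A and CD79B chains. The kinase SYK binds their phosphorylated tails, the adaptor BLNK brings BTK and phospholipase C gamma to SYK, and the signal drives a burst of division and then permits light-chain rearrangement. The surrogate light chain genes are characteristic of pro-B and pre-B cells and are silenced later, whereas Cd79a, Cd79b, Syk, Blnk and Btk stay in use in mature B cells.

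The 3 genes of the surrogate light chain itself lie on chromosome 16 in the mouse genome. In RefSeq's GRCm38.p6 gene table Igll1 and Vpreb1 were direct neighbours, with 0 genes between them, and 52 genes lay between Vpreb1 and Vpreb2. The 250 bases before their annotated starts are shown because the copy relation of Vpreb1 and Vpreb2 can be seen in them. They come from RefSeq's GRCm38.p6 annotation and are written from 5′ to 3′ on the strand of the gene. In Vpreb1 (chr16:16869256-16869505, minus strand) and Vpreb2 (chr16:17980315-17980564, plus strand) capitals mark the longest run of identical bases, and in Igll1 (chr16:16863986-16864235, minus strand) they mark a match to the EBF1 motif CCCNNGGG.
Igll1: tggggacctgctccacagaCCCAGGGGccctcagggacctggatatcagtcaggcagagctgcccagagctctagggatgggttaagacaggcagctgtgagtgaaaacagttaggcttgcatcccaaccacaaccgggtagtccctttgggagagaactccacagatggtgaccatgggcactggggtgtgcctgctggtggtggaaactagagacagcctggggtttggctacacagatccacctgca
Vpreb1: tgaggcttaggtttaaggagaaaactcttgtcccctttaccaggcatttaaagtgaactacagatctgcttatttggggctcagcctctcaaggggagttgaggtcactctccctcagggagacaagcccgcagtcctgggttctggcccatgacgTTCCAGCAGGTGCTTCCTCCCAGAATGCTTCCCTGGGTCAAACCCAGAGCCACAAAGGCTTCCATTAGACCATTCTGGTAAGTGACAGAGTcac
Vpreb2: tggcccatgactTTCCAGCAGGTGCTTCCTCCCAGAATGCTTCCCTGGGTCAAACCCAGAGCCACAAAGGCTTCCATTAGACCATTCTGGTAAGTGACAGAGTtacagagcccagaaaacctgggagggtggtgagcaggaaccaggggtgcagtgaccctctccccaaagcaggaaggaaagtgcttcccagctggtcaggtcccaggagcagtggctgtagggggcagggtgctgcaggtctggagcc
With 50 bases after each start included, the best ungapped alignment of the Vpreb1 and Vpreb2 windows ran over 156 bases with 153 identical (98.1%), and the longest identical run was 91 bases. These are windows around the annotated starts, and no transcript or probe sequence was compared. Whether probes for 1 copy bind the RNA of the other was thus not tested, and the Vpreb1 and Vpreb2 signals may not measure 1 gene each.

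Windows of 250 bases were available for 8 of the 9 genes, with 2 starts for Syk, which made 9 windows. On either strand, and with overlaps between motifs allowed, CCCNNGGG, a motif of the B-lineage factor EBF1, was in 1 of the 9 (Igll1), against 11.8% of all 32851 windows in the table. The E-box CANNTG, bound by E2A proteins, was in all 9, against 66.2% of all windows. TGGGAA, a motif of IKAROS, was in Vpreb2 and Btk, against 21.6% of all windows. These are matches of letters in a window and nothing more.

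All 9 genes gave bright signals in every sample, whatever the genotype. The values were deposited as log2 signals, and array medians ran from 6.93 to 7.42. The weakest margin over an array's own median was 2.98 log2 units (Btk in wild-type replicate 1) and the widest 7.03 (Igll1). Igll1 lay near the top of the scale, above 99.8% of genes on each array; the deposited table gives no saturation flag, so a compressed difference there was not tested. The knockout samples did show the labelled change. Jun was at 6.46 to 7.02 in knockout and 8.77 to 10.55 in wild-type samples, and Cdk6, the cell-cycle kinase named in the series title, at 6.79 to 10.11 and 11.002 to 11.58. Neither gene passed in the limma fit of all 8 samples given below, with adjusted p = 0.106 for Jun and 0.878 for Cdk6.

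**Figure D1:**
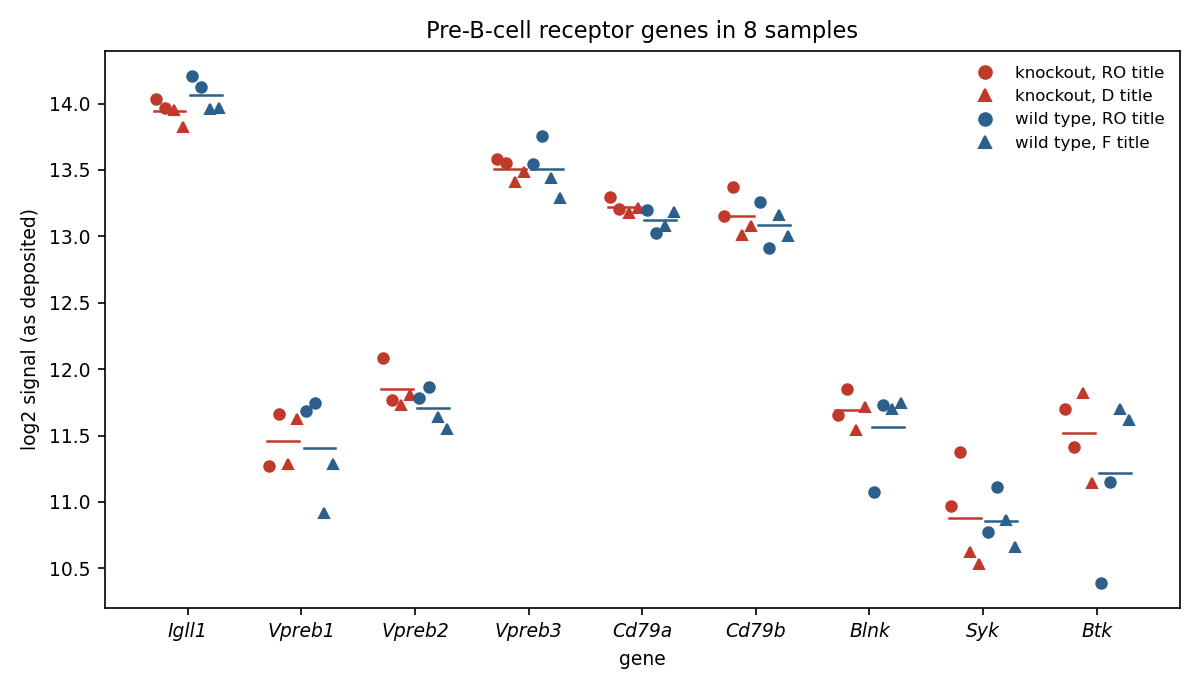
Log2 signal of the 9 receptor and signalling genes (x axis) in each of 8 samples, with knockout in red, wild type in blue, circles for RO titles, triangles for D or F titles and a line at the mean of each genotype (n = 4). The knockout and wild-type points overlap for every gene, and Btk and Blnk each have 1 low wild-type circle at 10.39 and 11.08; heights of different genes come from different probe sets and are not compared.

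The surrogate light chain was the first group. Igll1 signals in knockout replicates 1 to 4 were 14.04, 13.96, 13.95 and 13.82, with a mean of 13.94 ± 0.09 (SD, n = 4). In wild-type replicates 1 to 4 they were 14.21, 14.13, 13.96 and 13.97, with a mean of 14.07 ± 0.12 (SD, n = 4). The groups overlapped, and the highest 2 values were the wild-type samples with RO titles. The knockout difference was -0.12 (SE 0.10), with a 95% interval from -0.34 to 0.090, and with arrays centred on their medians it was 0.030. Expressed as fold, the interval reached from 1.26-fold lower to 1.06-fold higher.

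Vpreb1, which encodes one of the VpreB proteins, was the most variable of the surrogate light chain genes. Its signals were 11.27, 11.66, 11.29 and 11.62 in knockout replicates and 11.68, 11.74, 10.91 and 11.29 in wild-type replicates. The lowest value, 10.91, was in wild-type replicate 3, and the groups overlapped. The means were 11.46 ± 0.21 and 11.41 ± 0.39 (SD, n = 4 each), and the difference of 0.053 (SE 0.17; interval -0.32 to 0.43) turned to -0.082 without wild-type replicate 3 and to -0.075 without knockout replicate 4.

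Vpreb2, its close copy, had signals of 12.09, 11.77, 11.73 and 11.80 in knockout and 11.78, 11.87, 11.64 and 11.55 in wild-type replicates. Its highest value was in knockout replicate 1, the sample in which Vpreb1 was lowest among the knockouts. The genotype difference was 0.14 (SE 0.12; interval -0.13 to 0.41), with overlapping groups.

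Vpreb3, which encodes a related protein that associates with newly made immunoglobulin chains inside the cell, had signals of 13.58, 13.55, 13.41 and 13.48 in knockout replicates and 13.54, 13.75, 13.44 and 13.29 in wild-type replicates. The genotype means were 13.51 ± 0.08 and 13.51 ± 0.20 (SD, n = 4 each). The difference of 0.0014 (SE 0.11; interval -0.23 to 0.24) had no stable sign: it was -0.027 after quantile normalization and below 0 without knockout replicate 3 or 4 or wild-type replicate 1 or 4. Within each genotype the RO samples were the higher ones.

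The signalling chains came next. Cd79a, whose product carries a signalling tail that SYK binds, was at 13.30, 13.21, 13.18 and 13.21 in knockout and 13.20, 13.02, 13.08 and 13.18 in wild-type replicates. The whole range over 8 samples was 1.21-fold, the smallest of the 9 genes on the values as deposited, and the difference was 0.10 (SE 0.11; interval -0.13 to 0.33). Cd79b, its partner chain, was at 13.15, 13.37, 13.01 and 13.08 in knockout and 13.26, 12.91, 13.16 and 13.001 in wild-type replicates. Its groups overlapped too, with a difference of 0.068 (SE 0.12; interval -0.20 to 0.34) that was -0.022 without wild-type replicate 2.

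The adaptor and the kinases followed. Blnk was at 11.66, 11.85, 11.54 and 11.72 in knockout and 11.08, 11.73, 11.70 and 11.75 in wild-type replicates. Wild-type replicate 1 lay below the other 7 samples. The difference of 0.13 (SE 0.17; interval -0.23 to 0.49) was -0.046 without that sample. Syk was at 10.97, 11.38, 10.62 and 10.53 in knockout and 10.78, 11.11, 10.86 and 10.66 in wild-type replicates, with the D samples lowest. Its difference of 0.022 (SE 0.16; interval -0.32 to 0.37) turned to -0.011 after quantile normalization, to -0.087 without wild-type replicate 1 and to -0.10 without knockout replicate 2.

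Btk, the Tec-family kinase downstream of SYK and BLNK, had the widest spread, 2.69-fold between the lowest and the highest sample. Its signals were 11.70, 11.41, 11.82 and 11.14 in knockout and 10.39, 11.15, 11.70 and 11.62 in wild-type replicates. The groups overlapped, and wild-type replicate 1 was again the lowest sample. The means were 11.52 ± 0.30 and 11.21 ± 0.60 (SD, n = 4 each). The difference of 0.30 (SE 0.24; interval -0.22 to 0.83) fell to 0.056 without wild-type replicate 1.

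Over the comparison of genotypes, 0 of the 9 genes passed, in a limma fit of all genes with genotype and title scheme as terms and Benjamini-Hochberg adjustment at 0.05. The adjusted limma p-values ran from 0.878 to 0.998, and 0 of the 9 had an unadjusted p under 0.05. In the same fit 0.00502% of all 19937 genes passed, and 2.25% had an unadjusted p under 0.05. The groups overlapped for all 9, while 1.29% of all genes had groups that did not overlap. Of the 9 differences 8 were above 0 and their median was 0.068, against -0.113 for all genes; that median was 0.221 with arrays centred on their medians and 0.033 after quantile normalization. In 2-sided exact permutation tests of single genes, 9 in number, unadjusted p ran from 0.114 (Cd79a) to 1, where the smallest value that 70 assignments allow is 0.0286. The widest interval among the 9, that of Btk, allowed up to 1.78-fold higher in the knockout, and the interval bounds of the other 8 lay between 1.26-fold lower and 1.41-fold higher.

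**Figure D2:**
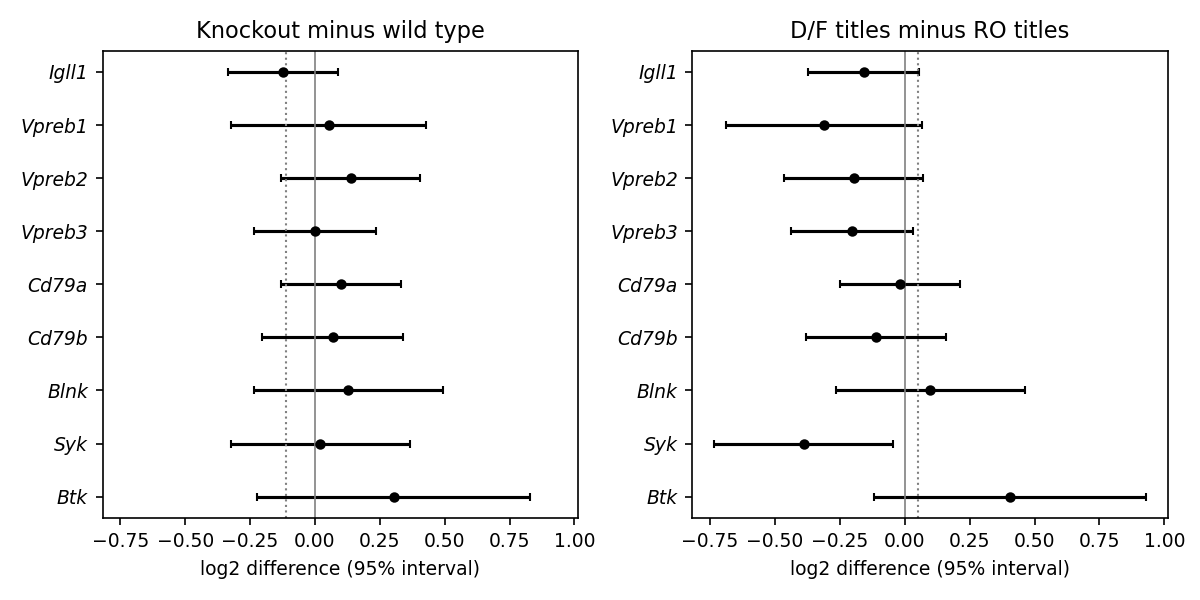
Log2 differences of the 9 genes with 95% intervals from limma, for knockout minus wild type (left) and for samples with D/F titles minus samples with RO titles (right), n = 4 against 4 in each; the dotted line is the median of all genes (-0.113 and 0.051). On the left every interval includes 0, and on the right that of Syk alone does not (-0.74 to -0.04).

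The title schemes were compared in the same fit, because samples of a scheme may share handling, although the labels do not say so. Igll1 and the 3 Vpreb genes were all lower on average in the D/F samples, with differences of -0.31 (SE 0.17) for Vpreb1, -0.20 (SE 0.11) for Vpreb3, -0.20 (SE 0.12) for Vpreb2 and -0.16 (SE 0.10) for Igll1. None of these passed. For Vpreb3 all 4 D/F samples (13.29 to 13.48) lay below all 4 RO samples (13.54 to 13.75). Groups of this comparison did not overlap for 1 of the 9 genes and for 1.96% of all genes. The 2-sided exact permutation p of Vpreb3 was 0.0286, the smallest possible and not adjusted for the 9 genes. After quantile normalization the differences were -0.036 for Igll1, -0.098 for Vpreb3, -0.29 for Vpreb1 and -0.17 for Vpreb2. With arrays centred on their medians they were -0.24 for Igll1, -0.28 for Vpreb3, -0.39 for Vpreb1 and -0.28 for Vpreb2. Fewer cells of a type and less RNA per cell cannot be told apart in such bulk samples.

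Syk had the other difference of note between schemes, -0.39 (SE 0.16; interval -0.74 to -0.04), from 11.06 ± 0.25 in RO to 10.67 ± 0.14 in D/F samples (SD, n = 4 each). Its unadjusted limma p was 0.0304 and its adjusted p 0.9999. It was the 1 gene of the 9 with an unadjusted p under 0.05, against 3.12% of all genes, and 0 of the 9 passed the adjustment, against 0.0201%. Btk pointed the other way, at 0.41 (SE 0.24), or 0.16 without wild-type replicate 1, and Blnk was at 0.10 (SE 0.17), or -0.076 without that sample. Cd79a (-0.02, SE 0.11; 0.067 after quantile normalization) and Cd79b (-0.11, SE 0.12) differed by less than their errors.

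Within each scheme the genotypes were then compared on 2 samples each. In the RO samples Btk was higher in both knockouts (11.70 and 11.41) than in both wild types (10.39 and 11.15), a difference of 0.78 (SE 0.30; limma, adjusted p = 0.397). In the D/F samples the Btk difference was -0.18 (SE 0.18) and the samples overlapped. The test of the difference between the schemes gave -0.96 (SE 0.40; limma, adjusted p = 0.716), and -0.58 without wild-type replicate 1 or -0.62 without knockout replicate 4. Vpreb1 ran from -0.25 (SE 0.24) in RO to 0.35 (SE 0.18) in D/F samples, with a limma interaction of 0.60 (SE 0.30; adjusted p = 0.716), which was 0.26 with arrays centred on their medians.

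The other 7 genes had smaller interactions, from -0.45 (Blnk) to 0.16 (Vpreb3). Of the 9 genes 0 passed in the limma interaction, within RO or within D/F, and 1, 1 and 0 had an unadjusted p under 0.05, the 1 gene being Btk both times. Over all genes 0.0301%, 0.161% and 0.396% passed and 5.38%, 12.3% and 3.8% had an unadjusted p under 0.05. The difference of all genes had a median of -0.249 with RO titles and 0.0097 with D/F titles.

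**Figure D3:**
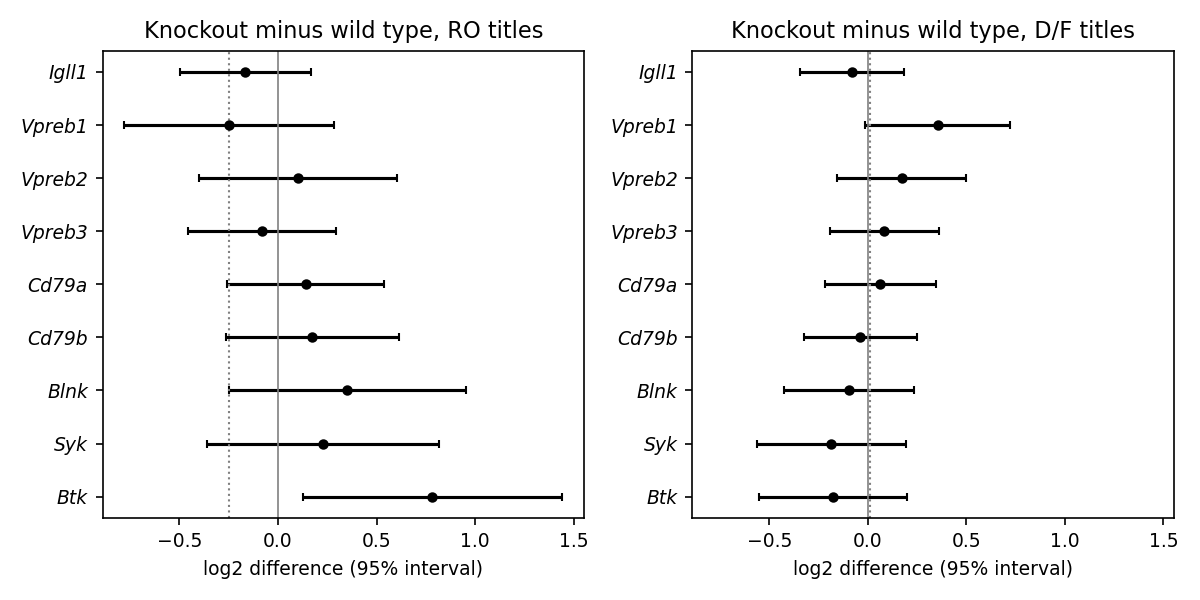
Knockout minus wild type (log2, with 95% limma intervals) for the 9 genes, with RO titles left and D/F titles right and 2 knockout and 2 wild-type samples each; the dotted line is the median of all genes (-0.249 and 0.0097). The interval of Btk lies above 0 in the RO samples (0.12 to 1.44) and includes 0 in the D/F samples.

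How far the 9 genes varied together depended on the scaling. Over the 8 samples, which share the scaling of their arrays, Pearson's r between pairs of the 9 genes had a median of 0.063 over 36 pairs on the values as deposited, with 22 pairs above 0, and a median of 0.67 with arrays centred on their medians, with 35 pairs above 0. Centring subtracts 1 number per array from every gene, and the array medians ran from 6.93 to 7.42. Such a shared term can raise r between any genes that vary little. Pairs of other bright genes were not compared, so whether the 9 genes vary together more than those was not tested. The 6 pairs among Igll1 and the Vpreb genes ran from 0.26 to 0.71 as deposited and from 0.64 to 0.90 centred, the highest being Vpreb2 with Vpreb3 on both scales. Btk and Blnk had 0.68 as deposited, a value that wild-type replicate 1 enters with the lowest signal of both. Btk and Vpreb1 had -0.71 as deposited and -0.073 centred. These are descriptions of 8 points.

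On the values as deposited, the SD over the 8 samples was 0.09 for Cd79a, 0.12 for Igll1, 0.14 for Vpreb3, 0.15 for Cd79b, 0.16 for Vpreb2, 0.24 for Blnk, 0.28 for Syk, 0.29 for Vpreb1 and 0.47 for Btk. The median SD was 0.16 for the 9 genes and 0.26 for all genes. Bright genes varied less in general: the 1627 genes at least as bright as Syk, the dimmest of the 9, had a median SD of 0.21, and 5 of the 9 were below it. Cd79a was at percentile 2.89 of these genes and Btk at 94.3. With arrays centred on their medians the order changed: the SD ran from 0.19 (Igll1) to 0.57 (Btk), with 0.23 for Cd79a, and the medians were 0.27 for the 9 genes, 0.21 for all genes and 0.30 for the 1627 bright genes. Of the 9 genes 5 were then below the median of the bright genes and 1 below that of all genes.

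Btk was the 1 gene of the 9 with an SD of at least 0.5 after centring each array. The genes most like it over the 8 centred samples, among 17109 named genes, were Eif2s3x (r = 0.97), Tsfm (0.97) and Rpa3 (0.97). On the values as deposited r was 0.96 for Eif2s3x, 0.69 for Tsfm and 0.94 for Rpa3. With centring 130 genes had r above 0.9, so a high r was not particular to the genes named.

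The heavy chain, the partner that the surrogate light chain binds, was measured by 3 probe sets named Ighm. The annotation used here does not say which part of the chain each of them covers. One ran from 6.65 to 7.39 and another from 4.94 to 6.61. The remaining one was at 9.97 in knockout replicate 1 and at 6.42 to 7.61 in the other 7 samples. Apart from that 1 value no Ighm signal lay more than 0.43 log2 units above the median of its array.

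Stage was read next from lists of genes. B-lineage identity was present in all samples: Ebf1 and Pax5, which switch on many B-lineage genes, were at 11.97 to 12.66 and 11.04 to 11.76, and 10 of 10 measured regulators of the receptor genes lay above the median of every array. The regulators included Bach2, a repressor active in early B cells. It was higher by 0.60 (SE 0.14) in the D/F samples with no overlap, but its adjusted limma p was 0.382. Between genotypes 0 of the 10 regulators passed, with 6 higher and 4 lower on average and a median of 0.061.

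Some genes of the pro-B stage varied over a far wider range than any of the 9 receptor genes. Rag1 and Rag2, which encode the V(D)J recombinase, spanned 19.2-fold and 14.0-fold over the 8 samples, Il7r, the receptor chain for interleukin 7, 11.4-fold, and Dntt, the terminal transferase, 10.6-fold. Over the 14 measured genes of that list the SD had a median of 0.34 and a minimum of 0.15, so others lay within the range of the receptor genes. Rag1 signals were 9.88, 10.43, 8.06 and 8.003 in knockout and 7.22, 9.80, 9.72 and 6.17 in wild-type replicates, and Rag2 followed the same samples with 9.09, 9.49, 6.63 and 6.91 and then 6.22, 8.63, 8.31 and 5.69. High and low samples thus occurred in both genotypes. In the samples with the lowest Rag1, wild-type replicates 4 and 1, Igll1 was at 13.97 and 14.21 and Cd79a at 13.18 and 13.20. Of the other receptor genes, Btk and Blnk were lowest in wild-type replicate 1, and Vpreb2 and Vpreb3 in wild-type replicate 4.

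The genotype differences of these genes did not pass, at 0.86 (SE 0.71) for Rag1, 0.82 (SE 0.63) for Rag2, 0.37 (SE 0.70) for Il7r and 1.2035 (SE 0.61) for Dntt. Without wild-type replicate 1 they were 0.19 for Rag1, 0.13 for Rag2 and -0.53 for Il7r, and that of Dntt was 0.53 without knockout replicate 1. Left-out samples moved these 4 differences over wide ranges, from 0.19 to 1.73 for Rag1, 0.13 to 1.55 for Rag2, -0.53 to 0.97 for Il7r and 0.53 to 1.84 for Dntt. Of the 14 pro-B genes 11 were higher and 3 lower on average, with a median of 0.081, and 0 passed. Kit, a receptor of early pro-B cells, lay below the median of every array, at 6.52 to 7.35.

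**Figure D4:**
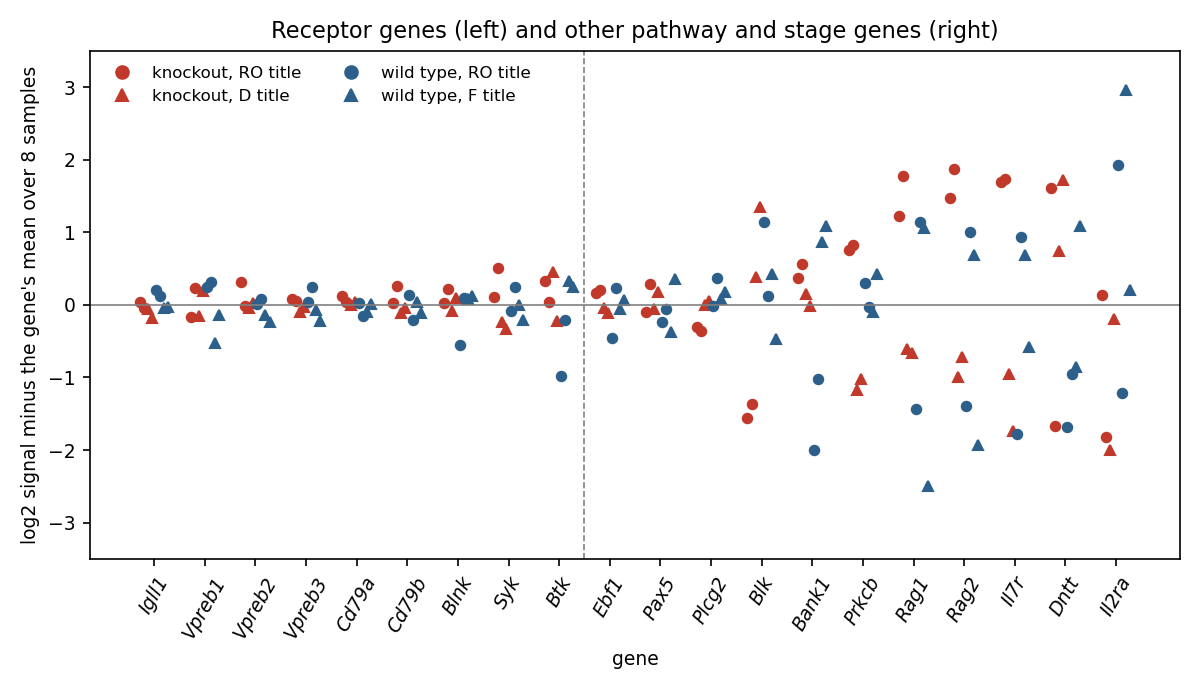
Log2 signal minus the gene's own mean over the 8 samples, for the 9 receptor genes (left of the dashed line) and for other genes of the pathway and of B-cell stages (right), with knockout in red, wild type in blue, circles for RO and triangles for D or F titles. The 9 receptor genes stay within 1 log2 unit of their means while Rag1, Rag2, Il7r, Dntt and Il2ra spread over several.

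Genes that rise after the receptor has signalled were uneven. Il2ra, the CD25 marker of late pre-B cells, was at 8.24, 6.28, 6.10 and 7.91 in knockout and 10.02, 6.89, 11.06 and 8.30 in wild-type replicates. Its difference of -1.94 (SE 0.78) had an unadjusted limma p of 0.0291 and an adjusted p of 0.878, and the groups overlapped. It was -1.24 without wild-type replicate 3. Of the 8 genes of this list 2 were higher and 6 lower on average, and 0 passed. Their median was -0.100, or 0.053 with arrays centred on their medians and -0.123 after quantile normalization. Over all genes 72.0% were lower in the knockout. Irf4 (0.11, SE 0.23) and Ikzf3 (-0.13, SE 0.22), 2 factors induced by the receptor, differed by less than their errors.

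Markers of later stages ran from low to bright. Ms4a1, the CD20 gene, was at 5.57 to 6.07, below the median of every array. Tnfrsf13c, another of these genes, was at 9.44 to 11.32, above the median of every array. Of 15 measured genes of immature and mature B cells 6 lay below the median of every array and 5 above it, and 12 were lower on average in the knockout, with a median of -0.171 that was -0.018 with arrays centred and -0.025 after quantile normalization. Cd74, the invariant chain, had a difference of -0.90 (SE 0.46), or -0.38 without wild-type replicate 1. Of 7 plasma-cell genes 5 were lower, and Sdc1, the CD138 gene, had -0.63 (SE 0.26; limma, adjusted p = 0.878), or -0.34 without knockout replicate 3. Of the 7 plasma-cell genes 2 lay below the median of every array and 2 above it, with Xbp1 of the latter at 10.15 to 12.59. In both lists 0 genes passed.

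Markers of other cell types were read against the array medians. The share of all genes below the median of every array is not given here. The counts, like those of the lists above, are thus a description only. Of the measured genes, 12 of myeloid cells, 14 of T or NK cells, 7 of erythroid cells or megakaryocytes and 8 of stroma, 8, 7, 3 and 5 lay below the median of every array and 1, 1, 1 and 3 above it. The T-cell genes Cd3e, Cd4 and Cd8a stayed at or below 7.75, and the myeloid genes Mpo, Itgam and Csf1r at or below 7.62. Cd3e nevertheless lay 0.11 to 0.36 log2 units above the median of every array. Lyz2, the lysozyme gene of myeloid cells, was the 1 gene of the myeloid list above the median of every array. It was at 7.44 to 10.64 in knockout and 8.33 to 9.93 in wild-type samples. Both highest values were in the knockout samples with RO titles. The NK receptor gene Klrb1c was at 10.54 in wild-type replicate 3 and 8.93 in knockout replicate 4, both with D/F titles, and at 5.73 to 6.78 in the other 6 samples. Klrd1, another NK receptor gene, was at 8.94 in wild-type replicate 3 and 7.89 in knockout replicate 3 and at 5.20 to 5.86 elsewhere. Lat, an adaptor gene placed in the T and NK list, was at 8.80 in wild-type replicate 1 and at 6.89 to 7.62 elsewhere. The log2 summed signal was 10.40 to 11.28 in knockout and 10.25 to 11.17 in wild-type samples for the myeloid list, and 10.27 to 10.86 and 10.34 to 11.83 for the T and NK list. In these 4 lists 0 genes passed between genotypes over all 8 samples. Within the RO samples Lyz2 passed, with 2.14 (limma, adjusted p = 0.0189), but not with arrays centred (adjusted p = 0.173) or after quantile normalization (adjusted p = 0.114). The part of other cells in the differences between title schemes was not tested.

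The remaining pathway genes were read as lists. Of the 23 measured genes that carry the activating signal beyond BTK or beside SYK, 12 were higher and 11 lower on average in the knockout, with a median of 0.012, and 0 passed. Plcg2, the phospholipase that BTK activates, was at 10.87 to 11.30 in knockout and 11.23 to 11.61 in wild-type samples, a difference of -0.31 (SE 0.14; limma, adjusted p = 0.878), or -0.19 without wild-type replicate 2. Rasgrp1, an activator of RAS, was the 1 gene of the list whose limma p was under the threshold before adjustment (-1.13, SE 0.46; adjusted p = 0.878), and its difference was -0.63 without wild-type replicate 1.

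Prkcb, the protein kinase C that links phospholipase C to NF-kappaB, and Bank1, a B-cell scaffold protein, differed in opposite directions in the RO and D/F samples. Prkcb was at 11.07, 11.15, 9.14 and 9.30 in knockout and 10.62, 10.29, 10.22 and 10.75 in wild-type replicates. The knockouts were thus the higher samples of Prkcb in RO (0.65) and the lower ones in D/F (-1.26; limma, adjusted p = 0.00173). Bank1 was at 9.94, 10.14, 9.71 and 9.55 in knockout and 7.57, 8.55, 10.44 and 10.65 in wild-type replicates, with differences of 1.98 in RO and -0.91 in D/F samples (limma, adjusted p = 0.0288 in the latter). The limma interactions did not pass, with adjusted p = 0.171 for Prkcb and 0.0805 for Bank1. Neither D/F call held under another scaling, although the differences hardly moved: with arrays centred the adjusted limma p was 0.99985 for both, with differences of -1.28 for Prkcb and -0.93 for Bank1. Il7r and Il2ra were the other list genes that passed within D/F, at -1.40 and -2.68, and did not pass with arrays centred or after quantile normalization.

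Of 14 measured inhibitors of the receptor signal 13 were lower and 1 higher on average in the knockout. Their median was -0.211, or -0.058 with arrays centred on their medians and -0.178 after quantile normalization. None of the 14 passed in limma, and 0 had an unadjusted p under 0.05. Fcgr2b, the inhibitory Fc receptor, had -0.19 (SE 0.25), Ptpn6, the SHP-1 phosphatase, -0.14 (SE 0.18), and Cblb, a ubiquitin ligase, -0.27 (SE 0.21). The median of all genes, -0.113, lay on the same side.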

How the data were processed

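RNA of 8 samples of mouse B-lymphoid cells was measured on Affymetrix MoGene 1.0 ST arrays, 1 array a sample, 4 of each genotype. The authors deposited log2 signals for 34760 probe sets; MAS5 is named in the submitters' processing notes, with its version not given in the sources used here. On the linear scale the 2% trimmed mean of every array was 500, so the arrays had been scaled to 1 target. Values were used as deposited. The number of arrays limits the precision.

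Platform annotation gave 1 symbol for 21640 probe sets, several for 1321 and none for 11799; of each gene the probe set of highest mean was kept (19937 genes). Differences were fitted in limma 3.58.1 (R 4.3.3) with genotype and title scheme as terms, eBayes with trend, and Benjamini-Hochberg adjustment over all genes at 0.05; the interaction and the fits within schemes used the same steps. Single genes were also tested by 2-sided exact permutation over 70 assignments (scipy 1.17.1). The genotype fit over all samples was tested on simulated data, and the title-scheme, interaction and within-scheme fits were not.

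The 9 genes and all gene lists were chosen with earlier results of these data known. Besides the 9, genes were named by rule: Jun and Cdk6; up to 4 genes of each list by smallest genotype p and up to 4 by smallest title-scheme p; a set of stage genes and markers of other cell types; and the 3 genes most like any of the 9 with a centred SD of at least 0.5. Irf4, Ikzf3, Prkcb and Bank1 and other genes singled out for a pattern were described after their values were seen. Promoter windows came from RefSeq; Cd79b is named only, and protein sequences were not used here. Some genes of the lists are not reported here. Scaling, probe set choice, the variance model, array weights and left-out samples were varied.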

Additional observations from a re-analysis of the deposited data

Results flagged for a closer look

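Spread was checked sample by sample in 86 groups of 4 samples, for 43 genes, nearly all named in the text. About 1 group in 20 is picked out by chance where genes are chosen without regard to their values. Some of the 43 were singled out after their values were seen, so that rate need not hold here. Blnk in wild-type replicate 1 was at 11.08 against 11.70 to 11.75 in the other 3 wild-type samples. Rasgrp1 in knockout replicate 1 was at 7.48 against 6.78 to 6.86 in the other 3 knockout samples. Jun was at 6.46 in knockout replicate 2 against 6.97 to 7.02, and at 10.55 in wild-type replicate 3 against 8.77 to 8.84. Knockout replicate 2 was also apart for Fcgr2b (9.88 against 10.73 to 10.85) and Csf1r (6.36 against 6.72 to 6.74). In the T and NK list, Klrb1c was at 10.54 in wild-type replicate 3 against 5.99 to 6.08. Klrd1 was at 7.89 in knockout replicate 3 against 5.50 to 5.62, and Lat at 8.80 in wild-type replicate 1 against 7.30 to 7.49.

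For 4 of the 43 genes both knockout samples lay on one side of both wild-type samples in the RO titles and on the opposite side in the D/F titles. The share of all genes with this pattern is not given here. Some of the 43 were picked with their values known, so the count is a description only. The difference between the schemes in the limma fit was -3.54 for Il7r (2.14 in RO, -1.40 in D/F; adjusted p = 0.716), -1.92 for Prkcb (0.65 and -1.26; adjusted p = 0.171), -2.89 for Bank1 (1.98 and -0.91; adjusted p = 0.0805) and 0.81 for Ikzf3 (-0.53 and 0.28; adjusted p = 0.716). None passed at 0.05.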

How the results depend on the processing

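Of the 9 genes 0 passed under any setting run, and the smallest adjusted limma p was 0.142 (Syk between title schemes, array weights). Of 459 recomputed differences 432 kept their direction. Over all genes the genotype count of 1 became 2 with array weights and 0 among genes above the median signal, and 0 to 2 with 1 sample left out. The title-scheme count of 4 became 20 with array weights, 12 with robust priors, 12 with every probe set and 0 among brighter genes, and 0 to 18 with 1 sample left out. The interaction count of 6 became 0 with array weights, 10 with robust priors, 10 with every probe set, 0 among brighter genes and 2 after quantile normalization, and 6 to 38 with 1 sample left out. The count of 32 in RO samples became 8 after centring and 12 after quantile normalization, and that of 79 in D/F samples became 1 and 0.

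The remaining 27 differences changed sign. Between genotypes they were 0.030 for Igll1 after centring, -0.070 with array weights and -0.027 after quantile normalization for Vpreb3, and -0.063 and -0.011 for Syk. With 1 sample left out the genotype range was -0.082 to 0.19 for Vpreb1, -0.045 to 0.060 for Vpreb3, -0.022 to 0.12 for Cd79b, -0.046 to 0.21 for Blnk and -0.10 to 0.10 for Syk. Between schemes Cd79a was 0.067 after quantile normalization and Blnk -0.057 with array weights, with left-out ranges of -0.062 to 0.0085 for Cd79a and -0.076 to 0.18 for Blnk. The interaction after centring was -0.26 for Igll1, -0.27 for Vpreb2 and -0.18 for Vpreb3, and after quantile normalization -0.36 for Igll1 and -0.22 for Vpreb3, with left-out ranges of -0.091 to 0.23 for Vpreb2 and -0.17 to 0.010 for Cd79a. The cause was not tested.

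No paired analysis was possible because the labels carry no replicate number that groups share. The pseudocount alternative was not run, since the values are log2.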
